A study of Mus musculus with 6 samples.

Results

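The Dickkopf proteins and their Kremen receptors were described in stellate cells of the liver, which store vitamin A, surround the sinusoids and turn into collagen-producing myofibroblasts after injury. The members were taken by gene symbol: Dkk1, Dkk2, Dkk3, Dkkl1, Kremen1 and Kremen2. All 6 were measured, each by 1 probe, among 23473 probes of which 16631 carried 1 gene symbol. Cells from mice lacking Sept4, which encodes a filament-forming septin, were compared with cells from wild-type mice, with 3 single-colour arrays per genotype. Mice of both genotypes had liver cirrhosis induced with carbon tetrachloride, a hepatotoxin, so no array shows an uninjured liver. The labels give no strain, age, dose, time or knockout design, and do not say whether the cells were cultured or pooled, or whether the arrays are separate mice. The p-values below therefore reflect only how far these arrays scatter, which may be technical. No label tells if both genotypes were handled side by side, and a handling difference between them cannot be told apart from genotype.

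Dickkopf proteins are secreted glycoproteins best known as antagonists of canonical Wnt signalling. Dkk1 and Dkk2 bind the Wnt co-receptors Lrp5 and Lrp6, and the transmembrane Kremen proteins bind the same ligands and help to remove Lrp6 from the cell surface. Dkk2 can inhibit or weakly activate the pathway, depending on whether Kremen2 is present. Dkk3 is a divergent member that does not bind Lrp6 in the same way, and Dkkl1, or soggy, resembles Dkk3 and is best known from the testis. In the liver, Wnt signalling bears on zonation of hepatocyte metabolism and on stellate cell activation.

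Of the 6 members, Dkk2 fell in the knockout, Dkk3 and Kremen2 rose, and Dkk1, Dkkl1 and Kremen1 did not pass an adjusted p of 0.05 in limma. Passing was common on these arrays: 42.7% of all probes passed, 26.7% as higher and 16.0% as lower. The family's 3 of 6 is thus near the share of all probes. The median difference, always given as knockout minus wild type on the log2 scale, was -0.17 over the members and 0.12 over all probes. Dkk2 had by far the largest difference among the members. Its position as the lowest of all 23473 differences is a description, since the series title gives its downregulation.

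Dkk2 gave deposited log2 signals of 1.01, 1.13 and 0.32 on the knockout arrays, against 4.79, 4.80 and 4.77 on the wild-type arrays. The wild-type arrays lay within 0.03 of one another, whereas all 3 knockout arrays lay far below them and close to the lowest values the arrays record, and the groups did not overlap. Dkk2 averaged 0.82 ± 0.43 in knockout cells and 4.79 ± 0.02 in wild-type cells (SD, n = 3 each). Knockout minus wild type gave -3.97 ± 0.23 (SE), with a 95% interval of -4.54 to -3.39 and an adjusted p in limma of 0.000526. By exact two-sided permutation of the arrays p was 0.1, the lowest value this design can reach.

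The knockout signal of Dkk2 was near the bottom of the measurable range, so its level there is imprecise. Knockout replicate 3 lay at its array's lowest value, and the knockout mean was only 0.50 above the mean of these lowest values. Against them, the wild-type mean left room for a fall of at most 4.47, so the lower end of the interval lies beyond what the arrays can record. With a linear offset added before the logarithm, which damps the differences of dim probes, the difference was -2.86. Leaving out each array in turn gave -4.12 to -3.72. A wild-type signal near that of Dkk2 seldom met a knockout signal at the bottom of the range. Of 2641 probes whose wild-type mean was within 0.5 of that of Dkk2, 2 lay at the lowest value on any knockout array. Dkk2 itself is counted among both numbers. In that window Dkk2 alone had a knockout mean as low as its own, which describes the probe chosen and tests nothing. In such samples fewer cells with Dkk2 transcript and less transcript per cell cannot be told apart.

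**Figure D1:**
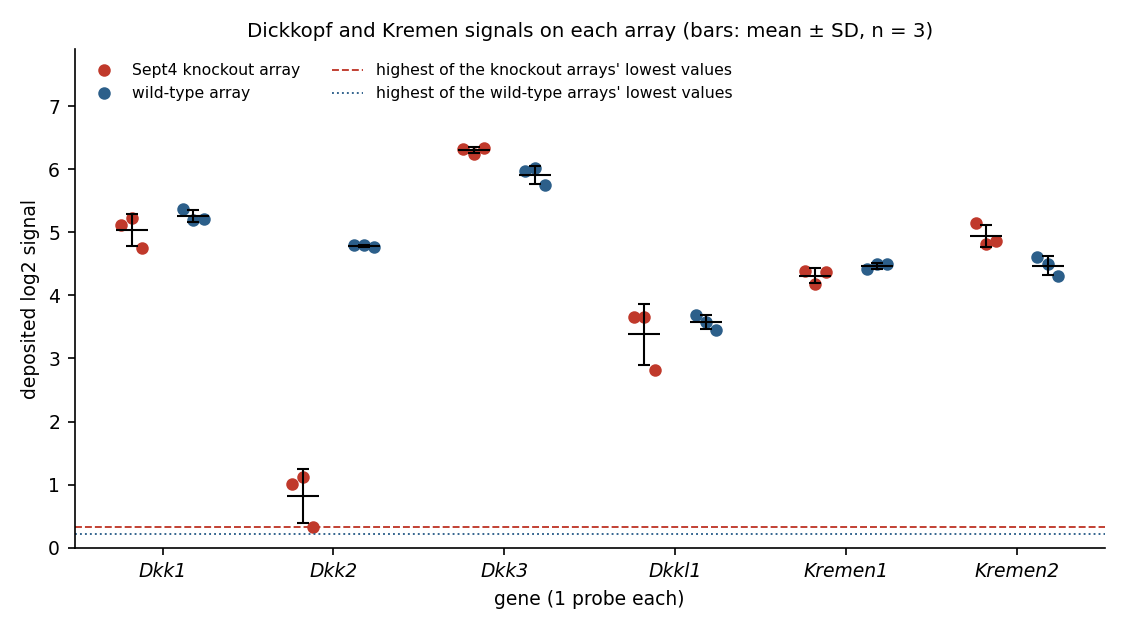
Deposited log2 signal of each member on the 3 Sept4 knockout arrays (red, left of each pair) and the 3 wild-type arrays (blue, right), with black bars for mean ± SD. Dkk2 sits at 0.32 to 1.13 in the knockout, by the dashed line of the arrays' lowest values, against 4.77 to 4.80 in wild type, while the group means of every other member differ by at most 0.47.

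The promoter of Dkk2 is shown because this gene carries the largest difference, and that of Dkk1 as the promoter of the other LRP-binding member, which did not pass. Sequences are from RefSeq on GRCm38.p6, in a table of promoters in which 4 of the 6 members were matched, and each runs from 250 bases before to 50 bases after the gene's start. Dkk2 lies on the plus strand at chr3:132085042-132085341 and Dkk1 on the minus strand at chr19:30549447-30549746. Capitals mark matches on either strand to the TCF core as CTTTGA or CTTTGT, the TATA box TATAAA and the GC box GGGCGG. These motifs and the AP-1 site TGANTCA, which matched in neither, were chosen with the sequences in view, and no motif overlapped another.
Dkk2: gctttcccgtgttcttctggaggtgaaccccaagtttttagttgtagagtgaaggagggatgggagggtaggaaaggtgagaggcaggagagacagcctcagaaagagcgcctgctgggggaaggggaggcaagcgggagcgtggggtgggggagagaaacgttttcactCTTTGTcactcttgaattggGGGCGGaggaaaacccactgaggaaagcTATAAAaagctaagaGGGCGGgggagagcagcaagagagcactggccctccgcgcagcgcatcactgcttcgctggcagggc
Dkk1: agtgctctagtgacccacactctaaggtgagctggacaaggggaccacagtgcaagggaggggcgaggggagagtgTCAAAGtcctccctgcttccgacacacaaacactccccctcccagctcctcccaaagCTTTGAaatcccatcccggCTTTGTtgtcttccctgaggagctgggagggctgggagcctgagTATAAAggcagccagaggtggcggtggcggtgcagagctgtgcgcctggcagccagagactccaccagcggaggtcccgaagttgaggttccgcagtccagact

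The Dkk2 window held a TATA box that begins 32 bases before the start, 2 GC boxes and 1 CTTTGT. The Dkk1 window held a TATA box that begins 54 bases before the start, CTTTGA once on each strand and 1 CTTTGT, with no GC box match. Among 32851 promoter windows of the same length, 16.0% held CTTTGA, 18.7% CTTTGT, 13.6% TATAAA, 35.7% GGGCGG and 7.81% TGANTCA. A match describes the letters and is not evidence of a bound site.

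Dkk1, the LRP-binding antagonist from which the family takes its name, did not differ beyond the spread of its arrays. It read 5.12, 5.23 and 4.76 on the knockout arrays, against 5.37, 5.20 and 5.22 on the wild-type arrays. Knockout replicates 1 and 3 were below every wild-type array, but replicate 2 lay among them, so the groups overlapped. The means were 5.04 ± 0.25 in knockout cells and 5.26 ± 0.10 in wild-type cells (SD, n = 3 each). The difference was -0.23 ± 0.14 (SE), with a 95% interval of -0.59 to 0.14 and an adjusted p of 0.262 in limma. Without knockout replicate 3 the difference shrank to -0.09.

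Dkk3, the divergent family member, rose in the knockout by a small amount. Its signals were 6.33, 6.25 and 6.33 on the knockout arrays, against 5.97, 6.01 and 5.75 on the wild-type arrays. Every knockout array was above every wild-type array, with the wider spread among the wild-type arrays. Dkk3 averaged 6.30 ± 0.05 in knockout cells and 5.91 ± 0.14 in wild-type cells (SD, n = 3 each), a 1.31-fold difference with an interval of 1.13 to 1.53. On the log2 scale this was 0.39 ± 0.09 (SE), at an adjusted p of 0.0177 in limma. Relative to the median of all probes it was 0.28. Of 2305 probes with a wild-type mean within 0.5 of that of Dkk3, 30.8% passed as higher, so a rise at this signal was common. The adjusted p was 0.0559 without knockout replicate 1 and 0.0552 without knockout replicate 3, which ends the call.

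Dkkl1, the soggy gene, had the widest spread of the members relative to its difference. It read 3.67, 3.67 and 2.82 in knockout arrays and 3.69, 3.58 and 3.46 in wild-type arrays. Knockout replicates 1 and 2 lay within the wild-type range, and replicate 3 alone was lower. The means of 3.39 ± 0.49 in knockout cells and 3.58 ± 0.12 in wild-type cells (SD, n = 3 each) differed by -0.19 ± 0.26 (SE), at an adjusted p of 0.591 in limma. The 95% interval ran from -0.85 to 0.47, which leaves room for a level up to 1.80-fold lower or 1.38-fold higher in the knockout. Without knockout replicate 3 the sign turned, to 0.09.

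Knockout replicate 3 was the lowest of the 3 knockout arrays for Dkk1, Dkk2 and Dkkl1, which is 3 of the 6 members. Over all probes it was the lowest of the 3 for 28.8%. Among probes with a wild-type mean between 3 and 6, where all members lie, it was the lowest for 33.9%. The difference of Dkk2 without it was -3.72, and its adjusted p in limma was 0.00312.

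Kremen2, the receptor whose presence sets how Dkk2 acts on Lrp6, rose in the knockout. Its signals were 5.14, 4.81 and 4.86 on the knockout arrays, against 4.61, 4.49 and 4.31 on the wild-type arrays. All knockout arrays were above all wild-type arrays, by 0.20 at the closest. Kremen2 averaged 4.94 ± 0.18 in knockout cells and 4.47 ± 0.15 in wild-type cells (SD, n = 3 each), a 1.39-fold difference with an interval of 1.11 to 1.73. On the log2 scale this was 0.47 ± 0.13 (SE), at an adjusted p of 0.0344 in limma. Among 2670 probes of like wild-type mean, 19.0% passed as higher. The call rested on all 6 arrays: without 1 array it held only when wild-type replicate 1 was the one left out, with an adjusted p of 0.0482, and ended in the other 5 cases, with adjusted p-values of 0.0502 to 0.0900.

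Kremen1, the other Kremen receptor, was lower on every knockout array without passing the test. It read 4.38, 4.18 and 4.38 on the knockout arrays, against 4.42, 4.49 and 4.49 on the wild-type arrays. The groups did not overlap, although the highest knockout and lowest wild-type arrays were only 0.04 apart. The means were 4.31 ± 0.11 in knockout cells and 4.47 ± 0.04 in wild-type cells (SD, n = 3 each). The difference was -0.15 ± 0.07 (SE), with a 95% interval of -0.34 to 0.03 and an adjusted p of 0.158 in limma. In all, the groups did not overlap for 4 of the 6 members, against 56.2% of all probes. Knockout arrays were above wild type for 2 members and 34.5% of all probes, and below for 2 members and 21.7% of all probes.

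**Figure D2:**
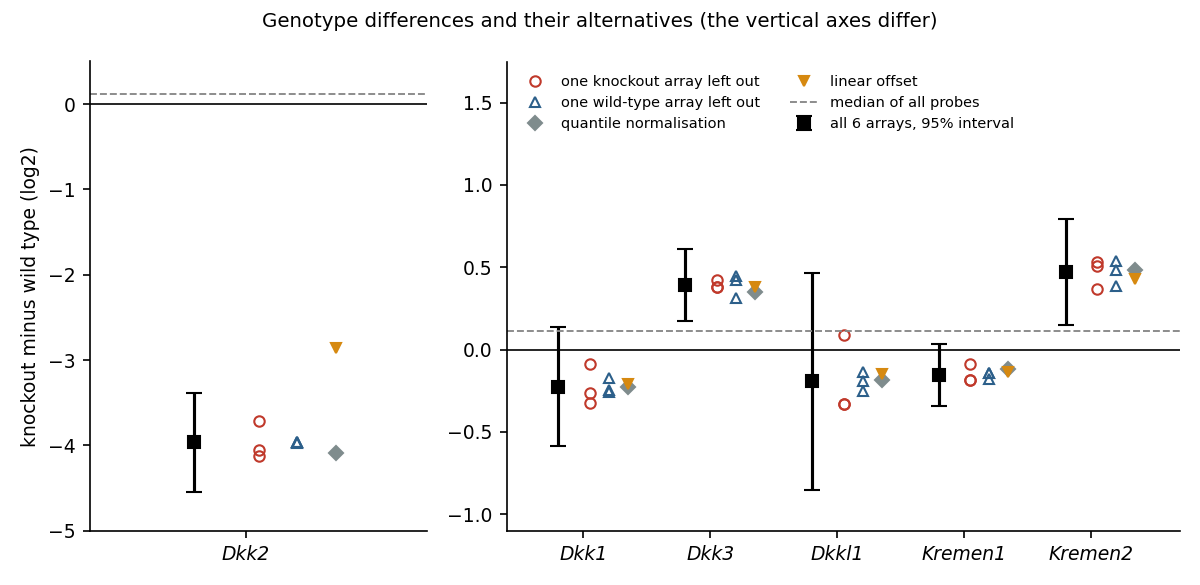
Knockout minus wild-type difference (log2) of each member with its 95% interval (black squares), beside the differences with 1 knockout array (open circles) or 1 wild-type array (open triangles) left out, after quantile normalisation and with a linear offset; the left axis is longer. Dkk2 lies between -4.12 and -2.86 throughout, whereas Dkkl1 turns to 0.09 in 1 case and Dkk3 and Kremen2 remain above the median of all probes at 0.12 (dashed).

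Dkk2 was also set against each other member within arrays, as the Dkk2 signal minus the signal of that member, which cancels any shift of a whole array. These values restate the size of the Dkk2 fall, seen beforehand, and share its limit at the lowest values. The genotype difference of this quantity was -3.74 against Dkk1, -4.36 against Dkk3, -3.77 against Dkkl1, -3.81 against Kremen1 and -4.44 against Kremen2. In all 5 comparisons the 3 knockout arrays lay below the 3 wild-type arrays. The exact two-sided permutation p was 0.1 in each, the smallest possible, and 0.1 after Benjamini-Hochberg adjustment over the 5. With the linear offset the same quantity ran from -3.29 to -2.65.

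**Figure D3:**
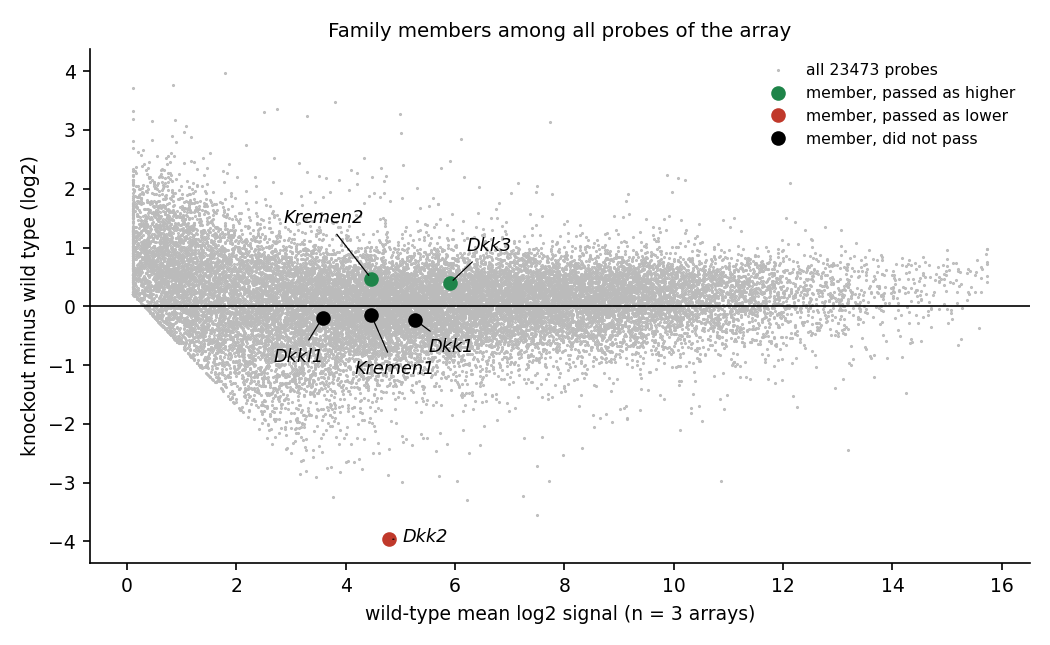
Knockout minus wild-type difference (log2) of all 23473 probes against their wild-type mean log2 signal, with the 6 members marked by whether they passed an adjusted p of 0.05. Dkk2, at -3.97, is the lowest point of the plot, and the other 5 members lie inside the cloud between -0.23 and 0.47; the slanted lower edge on the left is set by the lowest values of the arrays.

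Likeness to a member was measured over the 6 arrays, as the root mean square difference between signals centred on each probe's own mean, across the other 16630 probes with 1 symbol. The nearest gene to Dkk2 was Ivl, which encodes involucrin of the cornified envelope, at a distance of 0.40. Ivl read 3.04, 2.91 and 2.85 on the knockout arrays, against 6.21, 6.28 and 6.18 on the wild-type arrays. The skeletal muscle actin gene Acta1 followed at 0.55, the metalloprotease gene Tll1 at 0.56, the cyclooxygenase gene Ptgs2 at 0.59 and Sprrl9 at 0.66. No probe lay within 0.2 of Dkk2, whereas 5206 lay within 0.2 of Dkk3 and 3896 within 0.2 of Kremen2. The nearest to Dkk3 were Lnpep, Esrrg and Slc30a4, at 0.031 to 0.037. The nearest to Kremen2 were 4921509F24Rik, 2410131K14Rik and Olfr741, at 0.035 to 0.064. The distances are set mainly by the genotype difference, so they describe its size and scatter.

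Among the surface partners of the Dickkopf proteins, Lrp6 rose and Lrp5 did not pass. Lrp6, the co-receptor that Dkk1 and Dkk2 bind, read 5.49, 5.64 and 5.60 in knockout arrays and 5.16, 5.16 and 5.19 in wild-type arrays. It differed by 0.41 ± 0.06 (SE), at an adjusted p of 0.00405 in limma. Lrp5, named here after its values were seen, overlapped between the genotypes, with 4.37, 4.16 and 4.58 in knockout arrays, 4.51, 4.74 and 4.56 in wild-type arrays and a difference of -0.23 with an adjusted p of 0.214. Of 13 co-receptor and R-spondin system genes, 4 rose and 1 fell, or 38.5% beside 42.7% of all probes, with a median difference of 0.41. Also higher were Lrp4, a relative of these co-receptors, by 1.05, the R-spondin ligand Rspo3 by 0.80 and its receptor gene Lgr6 by 1.98. With quantile normalisation Rspo3 rose by 0.58. Lgr6 was dim in both genotypes, with means of 2.80 in knockout and 0.82 in wild-type cells, and rose by 1.20 with the linear offset. The 1 that fell was Mesd, listed as Mesdc2 and named after its value was seen, the chaperone that folds Lrp5 and Lrp6, by 0.27.

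Over all pathway lists together, 19 of 78 measured genes outside the family rose and 13 fell, or 41.0%, close to the 42.7% of all probes. Their median difference was 0.09. Among 13 other secreted antagonists, 2 rose and 0 fell in limma, or 15.4%, with 1 lower at an unadjusted p under 0.05, at a median of 0.05. The rises were the frizzled-related genes Sfrp2 by 1.87 and Frzb by 1.27, or 1.85 and 1.10 with quantile normalisation. Dkk4, the remaining LRP-binding Dickkopf gene and no member here, scattered between 0.32 and 1.96 in knockout arrays and between 0.12 and 2.61 in wild-type arrays, so nothing can be read from it. Of 9 frizzled receptor genes 3 fell and 0 rose in limma, with 4 lower and 0 higher at an unadjusted p under 0.05. The share that passed was 33.3%, where 16.0% of all probes fell and 26.7% rose. The falls were Fzd8 by 0.80, Fzd3 by 0.77 and Fzd6 by 0.76, and the list median was -0.55. Of 19 Wnt ligand genes 5 rose and 3 fell, or 42.1%, with Wnt8a at 2.24, Wnt10b at 2.05, Wnt8b at -1.78 and Wnt3a at -1.32. Wnt8a, Wnt10b and Wnt8b were dim in both genotypes. Their means were 2.87, 2.73 and 0.45 in knockout cells and 0.63, 0.68 and 2.23 in wild-type cells. The linear offset brought their differences to 1.30, 1.17 and -0.92. It brought that of Wnt3a, with means of 3.08 in knockout and 4.40 in wild-type cells, to -1.12.

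Inside the cell, 5 of 16 beta-catenin transducers rose and 2 fell, or 43.8% beside 42.7% of all probes, at a median of 0.27. Apc, of the complex that degrades beta-catenin, and the kinase gene Csnk1a1 rose by 1.49 and 0.75. Apc had means of 4.76 in knockout and 3.27 in wild-type cells, and rose by 1.30 with the linear offset. The kinase gene Csnk1e fell by 0.86. With quantile normalisation Csnk1a1 rose by 0.54 and Csnk1e fell by 0.97. Lef1, a partner of beta-catenin on DNA, was dim and fell by 1.69, which the linear offset reduced to 0.95. Of 8 feedback and readout genes of the pathway 3 rose and 4 fell, or 87.5%, at a median of -0.42. The feedback inhibitors Axin2 and Nkd1 and the receptor gene Tnfrsf19 rose by 1.64, 0.88 and 0.89, while Myc fell by 1.69. Axin2 was dim, with means of 3.42 in knockout and 1.78 in wild-type cells, and the linear offset brought its rise to 1.17. The other such genes that passed fell: the feedback inhibitor Nkd2 by 0.61, Ccn4, listed as Wisp1, by 0.45 and Jun by 0.40. Nkd2, Ccn4 and Jun were named after their values were seen. The readout genes thus differed in both directions.

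**Figure D4:**
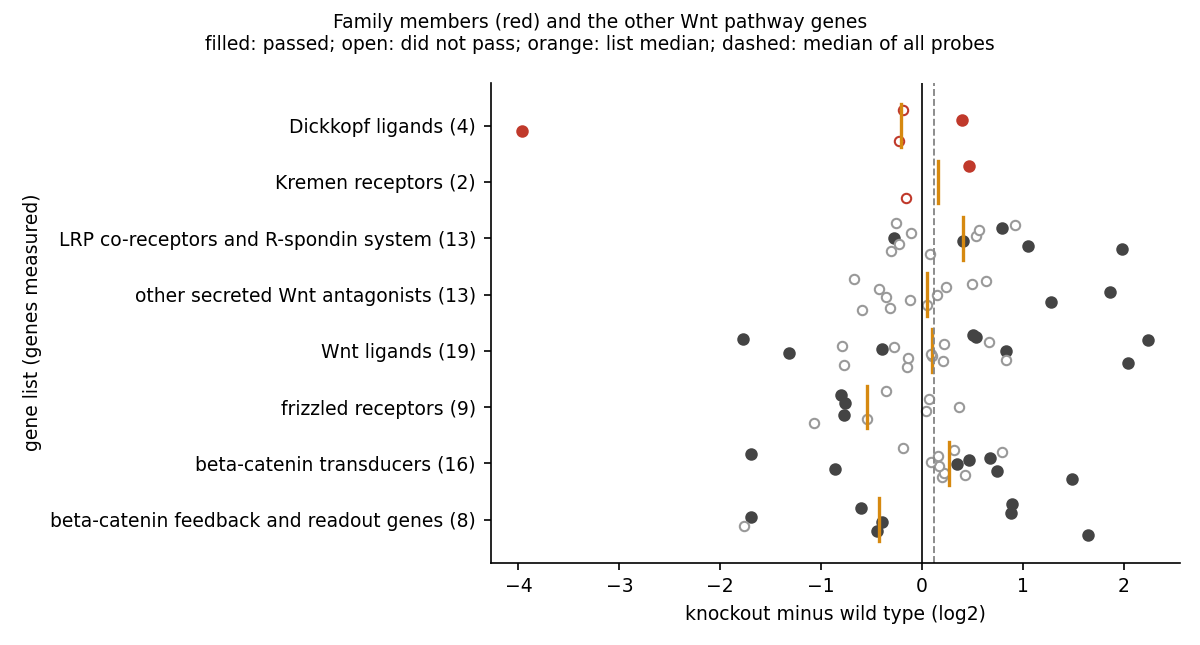
Knockout minus wild-type difference (log2) of each measured gene of the family (red) and of the other Wnt pathway lists (grey), filled where it passed an adjusted p of 0.05, with list medians in orange and the median of all probes dashed. No other gene plotted is as low as Dkk2, and every pathway list outside the family except the frizzled receptors and the other antagonists holds genes that passed on both sides of 0.

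Array medians were all 5.02, Pearson correlations across probes were 0.981 to 0.982 between knockout arrays, 0.986 between wild-type arrays and 0.967 to 0.971 between genotypes, and 940 to 989 probes on a knockout array and 969 to 1255 on a wild-type array lay at its lowest value. The highest log2 value was 16.63 to 16.79 on the knockout arrays and 15.68 to 15.79 on the wild-type arrays. The sums below use the deposited values without further scaling. Knockout arrays thus reached higher values, and the part of this in the differences between sums was not tested. The stellate cell markers were all detected in the sense that none lay at the lowest value on any array. Of 13, 9 rose and 1 fell, where 26.7% of all probes rose and 16.0% fell. The summed linear signal of these markers was 10800 to 11154 in knockout arrays and 6471 to 6776 in wild-type arrays. Of 10 myofibroblast markers 2 rose and 8 fell, with a sum of 53054 to 54488 in knockout and 59655 to 66431 in wild-type arrays. Without Col3a1, which rose, that sum was 33245 to 35686 in knockout and 55410 to 61842 in wild-type arrays. Markers of other cells were also summed. The hepatocyte sum was 2948 to 3042 in knockout and 2504 to 2585 in wild-type arrays, with 3 of 9 higher and 1 lower. The macrophage sum was 5141 to 5351 in knockout and 4306 to 4568 in wild-type arrays, with 2 of 8 higher and 1 lower, and without Cd5l the genotypes overlapped, at 2353 to 2389 in knockout and 2276 to 2480 in wild-type arrays. Of 9 endothelial markers 2 were higher, with a sum of 957 to 996 in knockout and 822 to 862 in wild-type arrays. Of 6 lymphocyte markers 1 was higher, with a sum of 40.2 to 56.2 in knockout and 24.1 to 29.2 in wild-type arrays and a median difference of 1.03. Of 4 cholangiocyte markers 0 passed in limma, with 1 at an unadjusted p under 0.05, and the sum was 46.4 to 53.4 in knockout and 31.9 to 43.7 in wild-type arrays. Without Krt19 the genotypes overlapped in this sum, at 25.5 to 32.3 in knockout and 18.4 to 30.1 in wild-type arrays. Among 6 portal fibroblast markers 2 were higher and 1 lower, with a sum of 293 to 312 in knockout and 385 to 406 in wild-type arrays. Without Thy1 that sum was 261 to 276 in knockout and 240 to 242 in wild-type arrays. Among 5 mesothelial markers 2 were lower, with a sum of 45.9 to 50.4 in knockout and 68.2 to 74.3 in wild-type arrays. The median marker signal was 2.17 for lymphocytes, 3.28 for cholangiocytes, 3.76 for mesothelial and 3.99 for endothelial cells. These lie below the array medians and do not show that such cells were present. Vwf, Cd3e, Cd3g, Nkg7, Fbln2 and Upk3b lay at the lowest value on some arrays and no marker on all of them. The part of any of these cell types in the Dkk2, Dkk3 and Kremen2 results was not tested. Sept4 itself was not analysed here and gives no check of the labels.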

How the data were processed

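Per the labels, total RNA of hepatic stellate cells was extracted with phenol and chloroform, labelled with Cy5 and hybridised to single-colour arrays, and the authors normalised the values by quantiles. The deposited values are log2 signals; the base was taken from their range. Only the array medians are equal in the table. The labelling text mentions tumours and a kit for microRNA, unlike the rest of the description. Background correction is not given in the sources used here.

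Probes were named from the platform annotation, and 6842 had no symbol. Older symbols were matched through a mouse gene table. Lists took the probe with the highest mean per gene. Differences were fitted over all 23473 probes with lmFit and eBayes (limma 3.58.1, R 4.3.3), two-sided, with Benjamini-Hochberg adjustment and no further normalisation, and the fit was tested on simulated data. The number of arrays limits the precision. Members and lists were chosen with earlier results of these data known. All members were named, and from each pathway list up to 4 that passed by size of difference. Alternatives were other scalings, filters on dim probes, an offset equal to the 10th percentile of the linear signal, other variance settings, a replicate block and leaving out arrays. Figures used matplotlib 3.10.9.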

Additional observations from a re-analysis of the deposited data

How the results depend on the processing

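The fall of Dkk2 passed under every alternative that kept its probe, with differences of -4.09 to -2.86 under 8 settings and -4.12 to -3.72 over the 6 left-out arrays. The count of members that fell went to 0 when probes touching the lowest value of any array were left out, and 0 without the dimmest 50% of probes, because these filters remove the Dkk2 probe. The count that rose, 2 with all arrays, was 0 to 2 over the left-out arrays and 1 without the dimmest 50%, which removes Kremen2. The genotypes share replicate numbers, and no pairing by them was seen over all probes. Deviations of same-numbered arrays correlated at -0.00196 to 0.00775, and not every array correlated best with its own number. A pairing that touches few probes would not show in these correlations. With the number as a block, 1 member rose, Dkk3 stood at an adjusted p of 0.0675 in limma and Dkk2 at 0.0189. Dkkl1 reversed only without knockout replicate 3, to 0.088, and was -0.33 at the lowest over the left-out arrays. The pathway genes that fell numbered 13, and 8 without the dimmest 50% of probes, where fewer were fitted. The 5 differences of Dkk2 against other members within arrays kept their direction under both rescalings and the offset. Over all probes the median difference, 0.12 here, was 0.02 with quantile normalisation and 0.01 with cyclic loess, and no member changed direction under either. Signal near the arrays' lowest values limits the size given for Dkk2.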

Other observations

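The genes that lie next to Dkk2 on chromosome 3 moved in both directions. Of the 5 measured genes on each side, 4 rose, 4 fell and 2 did not pass in limma, where 26.7% of all probes rose and 16.0% fell. Whether 10 genes chosen by position differ from that was not tested. Papss1, the nearest measured gene before Dkk2, which makes the sulfate donor of the cell, read 7.40, 7.51 and 7.51 on the knockout arrays, against 6.88, 6.94 and 6.90 on the wild-type arrays, and rose by 0.57. Aimp1, listed as Scye1 and nearest on the other side, differed by 0.08 with an adjusted p of 0.360. Sgms2, a sphingomyelin synthase gene listed as 4933405A16Rik, fell by 1.11, and the matrix gene Npnt fell by 1.02. Lef1, the transcription factor gene that also belongs to the Wnt pathway, was the fifth measured gene before Dkk2. It read 0.32, 0.64 and 1.53 on the knockout arrays, against 2.56, 2.29 and 2.72 on the wild-type arrays, and lay at the lowest value on 1 knockout array.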
